A study of Homo sapiens with 6 samples.

Results

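TBC1D30 was the gene of the TBC1D family that stood apart between control and COX4I1-targeted leukemia cells. It lay near 54.5 CPM (read counts scaled to a common library size) in control cells and 8.84 CPM in targeted cells, while the paralogs measured beside it had a median log2 fold change of -0.01. The family was taken as the rows of the deposited count table whose symbol starts with TBC1D, which are 44 of 19845 genes, and 28 of them passed the filter on low counts. The family was chosen by the fall of TBC1D30 in the contrast described here. Every value of a TBC1D gene between the groups, and every call of one, is therefore a description and not a test.

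The cells were Molm13, a human acute myeloid leukemia line with an MLL rearrangement, made to express Cas9. All 6 cultures received a single-guide RNA by lentivirus from the ipUSEPR vector and were selected in puromycin. The sgCtrl group (n = 3) carried control guides and the sgCOX4I1 group (n = 3) carried guides against COX4I1, a nuclear-encoded subunit of cytochrome c oxidase. The methods give each group as 3 independent guide sequences, so the spread within a group includes differences between guides, and nothing in the labels says that the cultures were otherwise repeated.

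Rab GTPases mark the membranes of the cell and direct vesicles between them, being active while bound to GTP and inactive with GDP. Proteins with a TBC domain switch Rabs off: the domain inserts a catalytic arginine and a catalytic glutamine, called fingers, into the Rab to speed the hydrolysis of GTP. TBC1D30 is best known as such a GTPase-activating protein for RAB8A, a Rab of secretory and ciliary membrane traffic, and has been described as a brake on the formation of primary cilia. Blood cells are generally regarded as lacking a typical primary cilium, and RAB8 also serves secretion and membrane recycling.

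TBC1D30 lies on the plus strand at chr12:64759484-64881033 (GRCh38, GENCODE 44) and is annotated as protein coding, with 9877 bases of exon and a predicted protein of 761 residues. In local alignments of proteins translated from the GENCODE 44 transcripts, counting only alignments of at least 100 residues, the most similar member was TBC1D2 with 36.6% identity over 254 residues. TBC1D10B followed with 34.0% over 262 residues and TBC1D10C with 32.8% over 238. These alignments cover about the length of a TBC domain. Both finger motifs were found in 19 of the 43 members that could be translated, and TBC1D30 was among them. The search took a strict pattern, isoleucine, aspartate and arginine at fixed spacing, then tyrosine and glutamine at fixed spacing. A member without a match is thus not shown to lack the catalytic residues.

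The codons of the arginine finger are shown for TBC1D30 and its 3 closest members, because they compare the catalytic core of the member that moved with that of members that did not pass the threshold. They are coding exon sequence of the MANE Select transcripts, read 5′ to 3′ on the strand of the gene, with the codons from the conserved isoleucine to the catalytic arginine in capitals.
TBC1D30: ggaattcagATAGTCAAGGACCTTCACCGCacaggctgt
TBC1D2: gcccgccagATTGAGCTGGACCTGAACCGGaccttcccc
TBC1D10B: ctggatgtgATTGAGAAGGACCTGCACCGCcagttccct
TBC1D10C: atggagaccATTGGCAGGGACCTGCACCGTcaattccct
The TBC1D30 stretch begins at codon 134 and is split by an intron into chr12:64830485-64830502 and chr12:64832119-64832139. The other stretches each lie in a single exon, at chr9:98208781-98208819 on the minus strand for TBC1D2, chr16:30364935-30364973 on the minus strand for TBC1D10B and chr11:67405628-67405666 on the plus strand for TBC1D10C. Of the 21 capital bases, TBC1D10B shared 17 with TBC1D30, TBC1D10C shared 16 and TBC1D2 shared 13.

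The codons of the glutamine finger are shown in the same way, with the codons from the conserved tyrosine to the catalytic glutamine in capitals.
TBC1D30: actgttgggTACTGCCAAggctttaac
TBC1D2: accatcggcTACTGCCAGggcctgaac
TBC1D10B: gacgagggtTACTGCCAGgcccaggcc
TBC1D10C: gagcagggcTACTGCCAGgcccagggg
They lie at chr12:64832221-64832247 (codon 174 of TBC1D30), chr9:98208670-98208696, chr16:30359766-30359792 and chr11:67405952-67405978. In each of the other 3, 8 of the 9 capital bases were those of TBC1D30.

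The libraries held from 17241014 to 30861943 counts. COX4I1 stood at 513, 502 and 463 CPM in the sgCtrl libraries and at 132, 378 and 133 CPM in the sgCOX4I1 libraries, all 3 below every control, with a log2 fold change of -1.21 (SE 0.29, adjusted p = 0.0512 by the quasi-likelihood test of edgeR after Benjamini-Hochberg correction). The sgCOX4I1 #2 library kept 76.7% of the sgCtrl mean of COX4I1, and without it the log2 fold change was -1.89. Small edits made by Cas9 need not lower the mRNA of their target, so this level is not a measure of editing. Every one of 10 myeloid leukemia markers lay above 1 CPM, while 6 of 13 markers of other blood and tissue cells, such as CD3D, HBB and EPCAM, were at 0 in every library. Above 1 CPM were 2 of the 13, PECAM1 at 178 CPM in sgCtrl and 201 CPM in sgCOX4I1 and KRT18 at 11.6 and 8.04 CPM. MPO, the granule peroxidase and 1 of the myeloid markers, fell from 227 to 109 CPM (adjusted p = 1.59e-05 by edgeR with Benjamini-Hochberg adjustment). Other myeloid markers lay on either side: LYZ, lysozyme, went from 1590 to 2717 CPM with overlapping groups (log2 fold change 0.77, adjusted p = 0.0534 by edgeR), and FLT3, a receptor kinase, went from 208 to 178 CPM without overlap (-0.23, adjusted p = 0.190 by edgeR). The myeloid markers, of which LYZ was the largest, summed to between 3462 and 4304 CPM in sgCtrl and between 3969 and 5137 CPM in sgCOX4I1. The markers of other cells, nearly all of it PECAM1, summed to between 182 and 206 CPM in sgCtrl and between 195 and 228 CPM in sgCOX4I1. As this sum follows 1 gene in cultures of 1 cell line, it is not read as a share of other cell types. The part of these markers in the level of TBC1D30 was not tested.

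TBC1D30 stood at 29.4, 58.3 and 75.8 CPM in sgCtrl #1, #2 and #3, from 540, 1073 and 1543 counts. In sgCOX4I1 #1, #2 and #3 it stood at 9.62, 6.92 and 9.98 CPM, from 216, 119 and 312 counts. The groups did not overlap, and the highest targeted library lay well under the lowest control. The means were 54.5 ± 23.4 CPM in sgCtrl and 8.84 ± 1.67 CPM in sgCOX4I1 (SD, n = 3 each), a 6.17-fold ratio. The log2 fold change was -2.61 (SE 0.26, 95% interval -3.17 to -2.04), the lowest estimate among the 11861 genes tested. The data are from bulk RNA, in which fewer cells that transcribe TBC1D30 and less TBC1D30 RNA per cell cannot be told apart.

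The control libraries differed from each other in TBC1D30 more than most genes did. Their log2 values had an SD of 0.70, larger than that of 98.4% of tested genes, and the highest control was 2.58 times the lowest. The median tested gene had an SD of 0.13 and a ratio of 1.18 in the same libraries. In sgCOX4I1 the SD of TBC1D30 was 0.29 and the highest library was 1.44 times the lowest. Leaving out sgCtrl #1, the lowest control, gave a log2 fold change of -2.90, and leaving out sgCtrl #3, the highest, gave -2.29.

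TBC1D30 was not lowest where COX4I1 mRNA was lowest among the targeted libraries. The library that kept most COX4I1 mRNA, sgCOX4I1 #2, held the least TBC1D30, at 12.7% of the sgCtrl mean. The other targeted libraries kept 26.7% and 27% of COX4I1 mRNA and held 17.7% and 18.3% of TBC1D30. With 3 libraries this order is a description only, and it does not rank the guides by editing or by COX4I1 protein.

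TBC1D30 also made up a smaller part of the family in targeted cells. Its share of all TBC1D counts was 2.52% (95% exact binomial interval 2.31 to 2.73), 4.60% (4.33 to 4.87) and 5.94% (5.65 to 6.23) in sgCtrl #1 to #3. In sgCOX4I1 #1 to #3 it was 0.851% (0.742 to 0.972), 0.590% (0.489 to 0.706) and 0.840% (0.750 to 0.939). These intervals cover counting error only and leave out the spread between guides. They overlap between no control and any targeted library, but the intervals of the 3 controls do not overlap each other either. As the family was chosen for this fall, their separation is a description only. The other 43 members together summed to 1184 ± 37.6 CPM in sgCtrl and 1155 ± 29.6 CPM in sgCOX4I1, a difference of -29.1 CPM, with groups that overlapped.

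**Figure D1:**
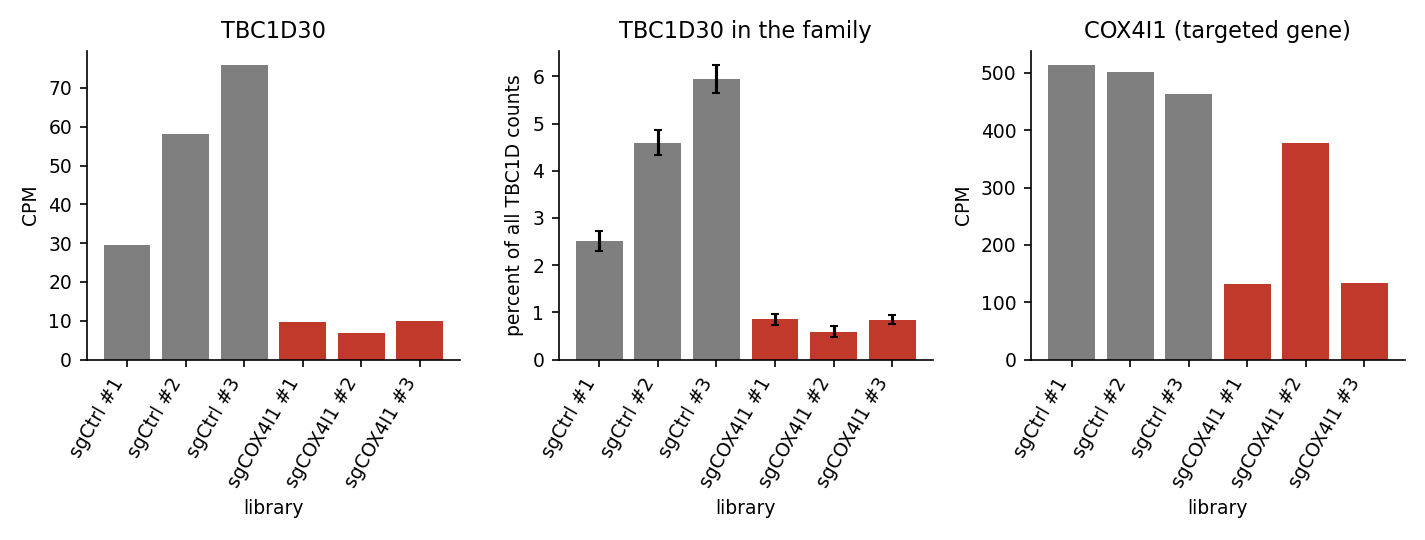
Bars give TBC1D30 in CPM (left), TBC1D30 as a percent of all TBC1D counts with 95% exact binomial intervals (middle) and COX4I1 in CPM (right), 1 bar per library, with sgCtrl in gray and sgCOX4I1 in red. TBC1D30 lies between 29.4 and 75.8 CPM in the control libraries and between 6.92 and 9.98 CPM in the targeted ones, with its lowest bar in the library whose COX4I1 bar is the highest of the targeted group.

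A gene was called when its adjusted p was under 0.05 in the fit over all genes. Of all tested genes, 1.02% were called lower and 1.06% higher in sgCOX4I1, 2.08% in all, and 0.202% were called with a change of at least 2-fold. Of the 28 tested TBC1D genes, 1 was called lower and 0 were called higher. The called gene was TBC1D30, which also passed 2-fold. As the family was chosen for that gene, nothing is read from this count. At an unadjusted p under 0.05 in edgeR there were 5 members, TBC1D30, TBC1D10A, TBC1D10C, TBC1D8 and TBC1D2. Over all genes tested, 2054 of 11861 were under that p. The counts at that p in the lists below are to be read beside that share. Their calls are to be read beside the 2.08%, at which 0 calls in a short list is not a result about it. DESeq2 called 2 members, TBC1D30 and TBC1D10C, and limma-voom called TBC1D30. Nothing is read from these counts of members either.

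Among the 27 tested paralogs of TBC1D30, estimates lay above 0 for 12 and below 0 for 15, with a median log2 fold change of -0.01, beside -0.0023 over all genes tested. For 20 paralogs the estimate was under 0.2 in size, and 26 had a 95% interval that lay wholly within a 2-fold change in either direction. The exception was TBC1D10A, with an interval from -1.45 to -0.12. Intervals lay below 0 for TBC1D10A, TBC1D10C and TBC1D8 and above 0 for TBC1D2. Groups did not overlap in 5 tested members, TBC1D30, TBC1D10A, TBC1D10C, TBC1D15 and TBC1D3L, all lower in sgCOX4I1, where 21.6% of all tested genes had groups without overlap in either direction. Signs of small estimates were not stable, and 10 members changed sign when 1 library was left out.

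**Figure D2:**
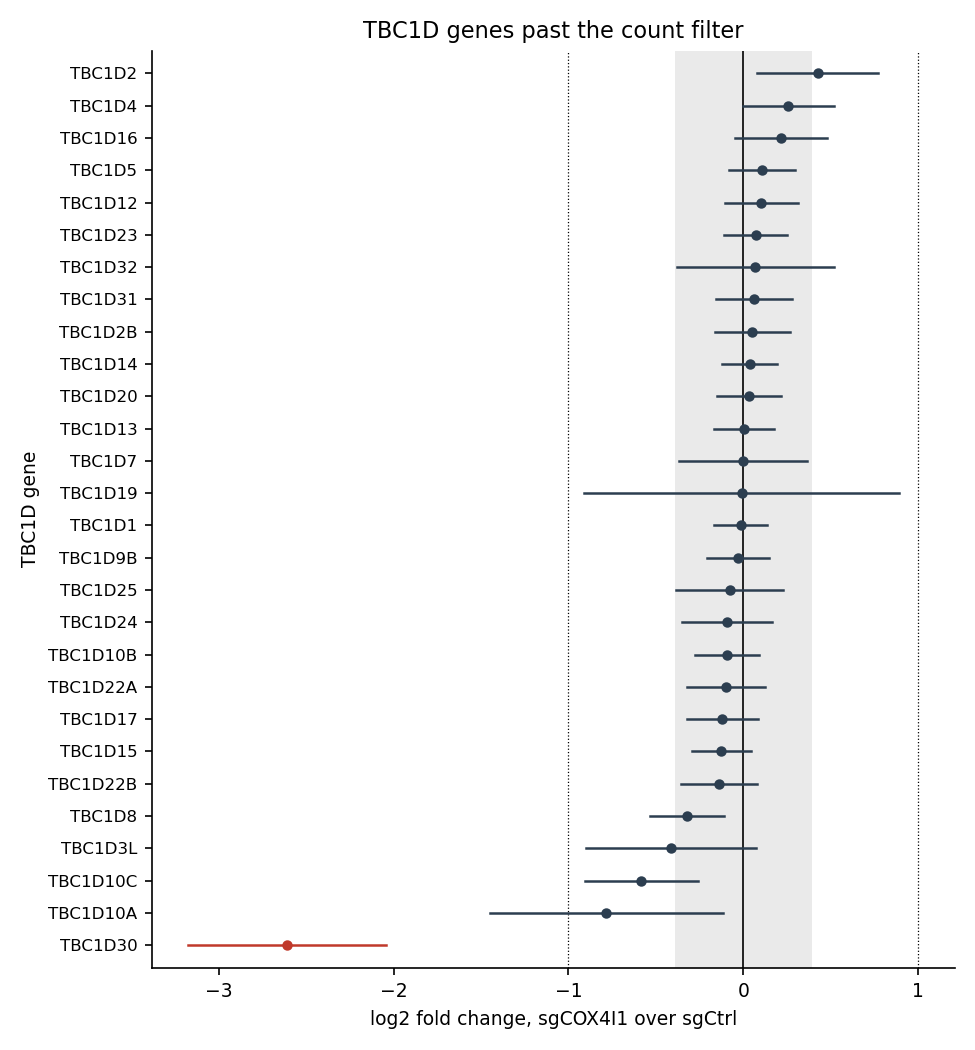
Points give the log2 fold change of sgCOX4I1 over sgCtrl for the 28 tested TBC1D genes and lines their 95% intervals, with TBC1D30 in red, dotted lines at a 2-fold change and a gray band from the 5th to the 95th percentile of all tested genes (-0.39 to 0.39). TBC1D30 lies at -2.61 with an interval that ends at -2.04, and the next estimate is that of TBC1D10A at -0.78.

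Of the 3 members most similar to TBC1D30, 1 had an estimate above 0 and the others below, and none was called. TBC1D2, known as Armus, is a GTPase-activating protein for RAB7. It stood at 15.7, 20 and 22.5 CPM in sgCtrl and at 19.6, 28.4 and 30.1 CPM in sgCOX4I1. Its groups overlapped, since the lowest targeted library lay under the highest 2 controls. The log2 fold change was 0.43 (SE 0.16), and the call threshold was not passed. Without sgCOX4I1 #1 it was 0.60, and there TBC1D2 passed.

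TBC1D10B, a GTPase-activating protein for RAB27 among other Rabs, stood at 83.5, 89.3 and 92.5 CPM in sgCtrl and at 73.5, 86.6 and 88.2 CPM in sgCOX4I1, with a log2 fold change of -0.10 (SE 0.085). The groups overlapped. TBC1D10C, called carabin and known as an inhibitor of calcineurin and Ras in lymphocytes, stood at 16.9, 17.6 and 12.1 CPM in sgCtrl and at 11.0, 9.59 and 10.5 CPM in sgCOX4I1. All targeted libraries were lower than all controls, and the log2 fold change was -0.58 (SE 0.15), short of the threshold. Leaving out sgCtrl #3, the lowest control, gave -0.74 and a call, and DESeq2 on all 6 libraries also called it.

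By role, the 4 members tied to glucose uptake and growth signalling gave estimates on both sides of 0, with a median of 0.0012. TBC1D1 and TBC1D4, GTPase-activating proteins for RAB10 that hold glucose transporters inside the cell, had log2 fold changes of -0.016 and 0.26. TBC1D13, which acts on RAB35 in the same route, had 0.0045. TBC1D7, the third subunit of the tuberous sclerosis complex, had -0.0020, and its controls spread from 13.7 to 23.0 CPM.

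The 8 members tied to mitochondria, autophagy and lysosomes had 5 estimates above 0 and 3 below, with a median of 0.043. TBC1D15 and TBC1D17, RAB7 regulators that are recruited to mitochondria by FIS1, had -0.13 and -0.12. TBC1D15 stood at 60.5, 59.4 and 61.6 CPM in sgCtrl and at 58.9, 51.4 and 55.8 CPM in sgCOX4I1, without overlap but with a difference of the size of the spread among the targeted libraries. TBC1D5, which acts on RAB7 at the retromer, had 0.11, and TBC1D2B, the relative of TBC1D2, had 0.051. TBC1D14 and TBC1D12, RAB11-binding proteins of recycling endosomes, had 0.036 and 0.10. TBC1D25, a GTPase-activating protein for RAB33B on autophagosomes, had -0.079.

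Of the 6 tested members assigned to endosomes and the plasma membrane, 5 had estimates below 0 and the median was -0.26. TBC1D10A, a regulator of RAB27A and RAB35 that binds the cell cortex, stood at 2.89, 2.55 and 2.11 CPM in sgCtrl and at 0.846, 1.63 and 1.86 CPM in sgCOX4I1. The log2 fold change was -0.78 (SE 0.31), and the targeted libraries, though all lower, ranged 2.19-fold among themselves. TBC1D3L, 1 copy of a hominoid gene cluster, stood at 3.05, 3.42 and 4.47 CPM in sgCtrl and at 2.45, 3.02 and 2.78 CPM in sgCOX4I1, with a log2 fold change of -0.41. Its copies are near identical, so their reads cannot be assigned with certainty. Raw counts summed over all TBC1D3 copies, not scaled for library size, were 70, 69 and 100 in sgCtrl and 65, 66 and 101 in sgCOX4I1. Library totals were 18590817, 18378107 and 20427900 in sgCtrl and 22417363, 17241014 and 30861943 in sgCOX4I1. Similar raw sums are therefore not similar levels. TBC1D24, a synaptic protein mutated in epilepsy, had -0.095, and TBC1D16, a regulator of RAB4A, had 0.21.

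The 4 members of the endoplasmic reticulum and Golgi lay close to 0, with a median of -0.034. TBC1D20, a GTPase-activating protein for RAB1 in the early secretory pathway, had a log2 fold change of 0.032. TBC1D23, a partner of trans-Golgi golgins, had 0.070. TBC1D22A and TBC1D22B had -0.10 and -0.14. The other members tied to cilia and centrosomes were not called. TBC1D31, a centrosomal protein, had 0.061, and TBC1D32, needed for ciliary Hedgehog signalling, had 0.068 with an interval from -0.38 to 0.52. Among members with less described roles, TBC1D8 stood at 102, 126 and 131 CPM in sgCtrl and at 87.1, 97.4 and 103 CPM in sgCOX4I1. Its log2 fold change was -0.32 (SE 0.098), with overlap between sgCtrl #1 and sgCOX4I1 #3. Without sgCtrl #1 it was -0.43, and there TBC1D8 passed the threshold. TBC1D9B and TBC1D19 had -0.030 and -0.0094.

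**Figure D3:**
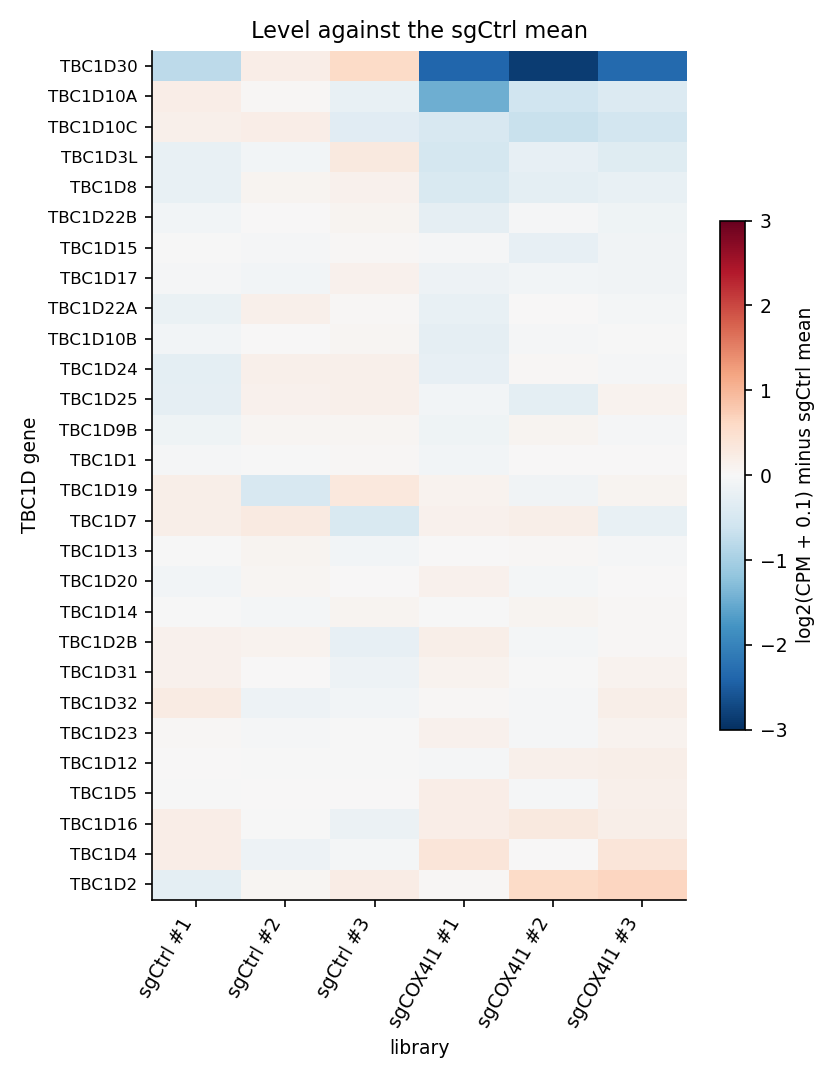
Colors give log2(CPM + 0.1) minus the sgCtrl mean for the 28 tested TBC1D genes (rows, ordered by log2 fold change) in the 6 libraries (columns), from blue (lower) to red (higher). The row of TBC1D30 at the top is deep blue in all 3 sgCOX4I1 libraries and uneven among the controls, where sgCtrl #1 is the lowest, and most other rows are pale throughout.

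Levels of different genes were compared per length, as CPM divided by the kilobases of annotated exon. In sgCtrl the highest members were TBC1D8 at 18.6, TBC1D14 at 17.2 and TBC1D1 at 12.8 CPM per kb, the last close to TBC1D10B at 12.8 and TBC1D13 at 12.6. TBC1D14 stood at 107, 103 and 114 CPM in sgCtrl and at 108, 113 and 111 CPM in sgCOX4I1. TBC1D1 stood at 120, 122 and 126 CPM in sgCtrl and at 117, 124 and 123 CPM in sgCOX4I1. The groups overlapped for both genes.

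The lowest tested members per length were TBC1D19 at 0.143, TBC1D10A at 0.362 and TBC1D32 at 0.503 CPM per kb. TBC1D19 stood at 0.654, 0.380 and 0.737 CPM in sgCtrl and at 0.624, 0.523 and 0.608 CPM in sgCOX4I1, and its interval ran from -0.91 to 0.89, so changes smaller than that were not detectable at this depth. TBC1D32 stood at 4.09, 3.10 and 3.24 CPM in sgCtrl and at 3.56, 3.37 and 3.93 CPM in sgCOX4I1. TBC1D30 ranked 13 of 28 in sgCtrl, at 5.52 CPM per kb, and 24 of 28 in sgCOX4I1, at 0.895 CPM per kb.

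**Figure D4:**
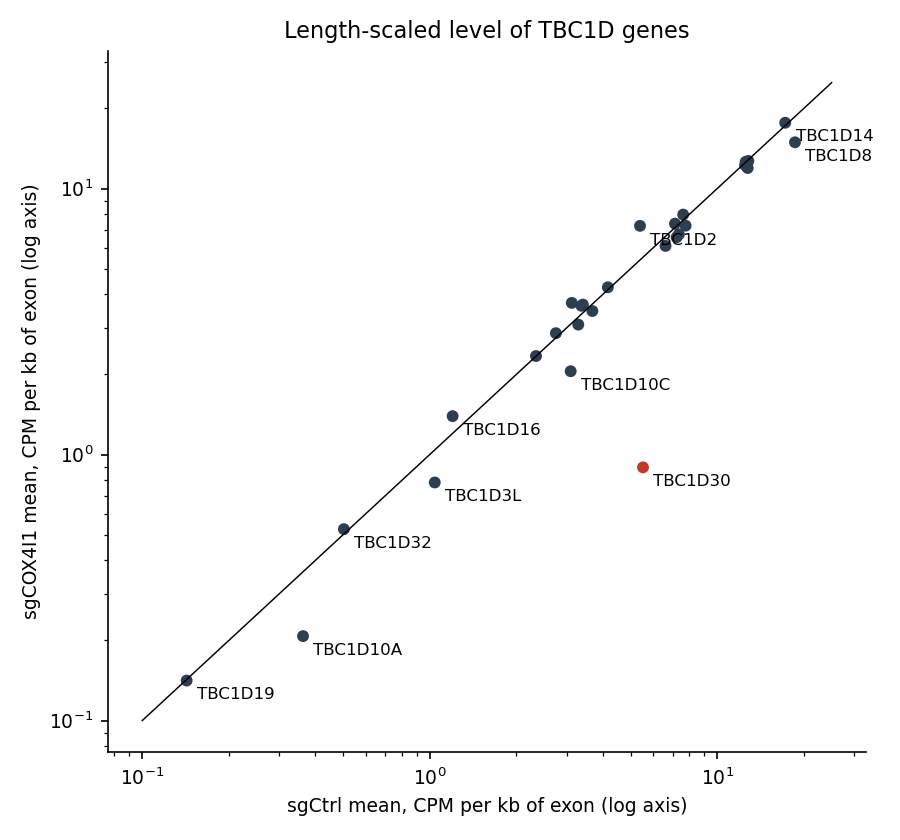
Each point is a tested TBC1D gene, with its mean level in sgCtrl across and in sgCOX4I1 upward, both in CPM per kb of exon on log axes, and the line marks equal levels. TBC1D30, in red, lies at 5.52 across and 0.895 upward, far under the line that the other members follow.

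The remaining 16 members did not pass the filter, with at most 14 counts in any library, reached by TBC1D9. Of these, 7 had 0 counts in every library: TBC1D21, TBC1D28, TBC1D3, TBC1D3C, TBC1D3D, TBC1D3H and TBC1D8B. A count of 0 allows up to 0.174 CPM in the shallowest library and up to 0.0959 CPM in the deepest, so they were below detection rather than shown to be absent. The other untested members were TBC1D26, TBC1D29, TBC1D3B, TBC1D3E, TBC1D3F, TBC1D3G, TBC1D3I and TBC1D3K. No comparison between the groups was detectable for any of them at this depth.

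Proteins with a TBC domain outside the TBC1D symbols did not pass the test. Of 11 such genes 8 were tested, and edgeR called 0, beside 2.08% of all genes tested. DESeq2 and limma-voom also called 0, and SGSM2 was the 1 gene at an unadjusted p under 0.05 in edgeR. Their estimates lay above 0 for 4 and below 0 for 4, and the median log2 fold change was 0.060. SGSM2, a regulator of RAB32 and RAB38, went from 112 to 95.5 CPM (log2 fold change -0.23, SE 0.086, adjusted p = 0.189 by edgeR with Benjamini-Hochberg adjustment). EVI5, a centrosomal regulator of RAB11, went from 9.69 to 11.5 CPM (0.25, SE 0.13, adjusted p = 0.347 by edgeR).

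The Rabs themselves, the substrates of the family, were called in 0 of 47 tested genes out of 63, beside 2.08% of all genes tested. At an unadjusted p under 0.05 in edgeR there were 13, beside 2054 of the 11861 genes tested. DESeq2 called 2, RAB13 and RAB40C, and limma-voom 0. Estimates lay above 0 for 28 and below 0 for 19, with a median of 0.015. Groups did not overlap for 8 lower and 9 higher Rabs, which is to be read beside the 21.6% of all genes. The smallest adjusted p was that of RAB40C, a Rab with a ubiquitin ligase box, which went from 68.5 to 54.0 CPM (log2 fold change -0.34, SE 0.095, adjusted p = 0.0766 by edgeR).

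RAB8A, the known target of TBC1D30, stood at 151, 143 and 144 CPM in sgCtrl and at 130, 134 and 126 CPM in sgCOX4I1. All targeted libraries were below all controls, by a small margin. The log2 fold change was -0.17 (SE 0.069, 95% interval -0.32 to -0.018, adjusted p = 0.228 by edgeR), so the test was not passed and a change beyond -0.32 lay outside the interval. RAB8B, its close relative, stood at 23.1, 19.9 and 21.1 CPM in sgCtrl and at 25.1, 19.4 and 22.5 CPM in sgCOX4I1, with overlap (0.066, 95% interval -0.18 to 0.31, adjusted p = 0.814 by edgeR).

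RAB10, a Rab of the same branch that drives basolateral and glucose transporter traffic, stood at 109, 97.0 and 102 CPM in sgCtrl and at 111, 118 and 113 CPM in sgCOX4I1. Its groups did not overlap and its estimate was 0.15 (SE 0.074, adjusted p = 0.307 by edgeR). RAB13, which serves cell junctions, stood at 158, 146 and 180 CPM in sgCtrl and at 119, 140 and 131 CPM in sgCOX4I1. It was lower in all targeted libraries (-0.31, SE 0.090, adjusted p = 0.0937 by edgeR), and DESeq2 put it past the threshold (adjusted p = 0.0422).

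Exchange factors, escort proteins and other carriers of Rabs gave 0 calls among 46 tested genes, by edgeR, DESeq2 and limma-voom. The share called by edgeR over all genes was 2.08%. Of the 46, 6 were at an unadjusted p under 0.05. Their median log2 fold change was 0.032, with 25 above 0 and 21 below. CHML, an escort protein for the prenylation of Rabs, went from 28.7 to 35.5 CPM (0.31, SE 0.094, adjusted p = 0.110 by edgeR). RINL, a Rab exchange factor of blood cells, went from 23.8 to 19.2 CPM (-0.31, SE 0.10, adjusted p = 0.145 by edgeR).

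Genes around RAB8 and of cilium assembly, a list that includes the 4 Rabs just described, gave 0 calls among 72 tested genes by edgeR. The share over all genes was 2.08%. DESeq2 called 1 of the list (RAB13) and limma-voom 0. At an unadjusted p under 0.05 there were 10. The median was -0.010, with 35 estimates above 0 and 37 below. IFT57, a component of intraflagellar transport, stood at 26.1, 24.2 and 23.3 CPM in sgCtrl and at 33.1, 28.7 and 32.1 CPM in sgCOX4I1. Its groups did not overlap, and its log2 fold change was 0.35 (SE 0.096, adjusted p = 0.0756 by edgeR).

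**Figure D5:**
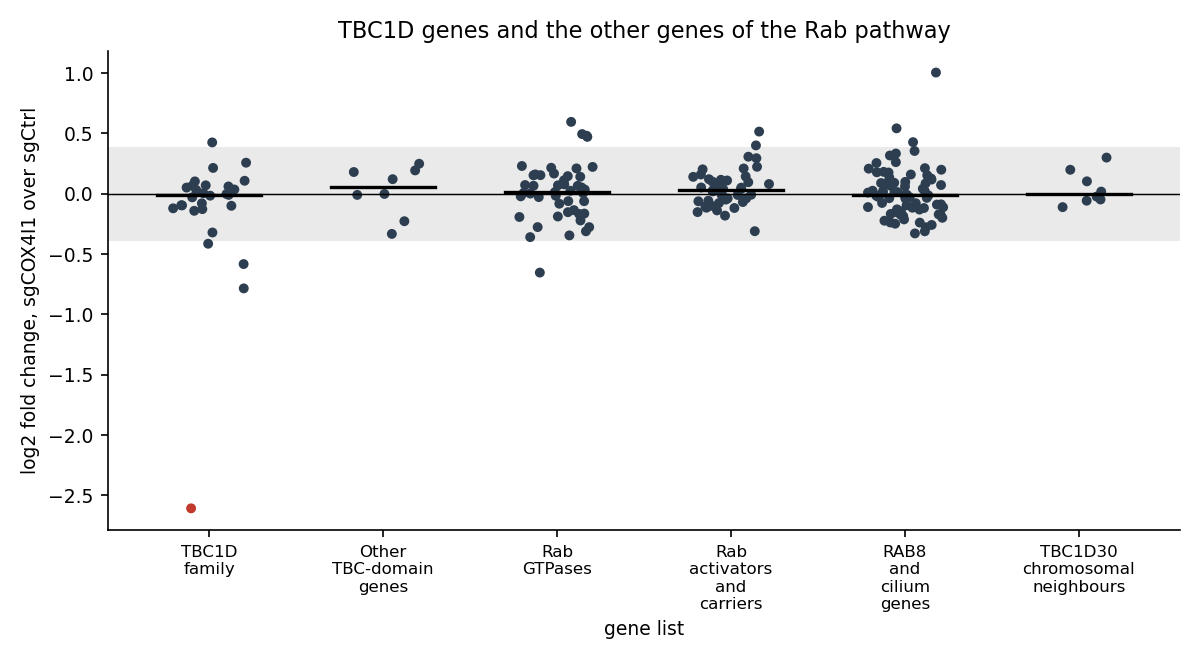
Points give the log2 fold change of each tested gene in the TBC1D family and in 5 other lists, black bars the medians, red a called gene and the gray band the 5th to 95th percentile of all tested genes. TBC1D30, at -2.61, is the single called point, and all 6 medians lie between -0.0125 and 0.060.

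The neighbours of TBC1D30 on chromosome 12 were 10 genes of the table, taken in equal number on each side by start position. Their starts reached 495 kb before that of TBC1D30 and 1357 kb after it. Of these genes 8 were tested and edgeR called 0, beside 2.08% of all genes tested, with 2 at an unadjusted p under 0.05. DESeq2 called 1 and limma-voom 0. XPOT, the exporter of transfer RNA, went from 376 to 431 CPM (0.20, SE 0.077, adjusted p = 0.20 by edgeR). The kinase TBK1 (0.018), RASSF3 (0.10), the chromatin protein HMGA2 (-0.11), the methionine sulfoxide reductase MSRB3 (-0.057), LLPH (-0.047) and the nuclear envelope protein LEMD3 (-0.023) had overlapping groups and log2 fold changes as given. C12orf56 and WIF1 were at 0 counts in every library.

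Part of the TBC1D30 annotation is shared. In GENCODE 44, 36.7% of its exonic bases lie as well in exons of another annotated locus on the same strand. A counter that knew that locus could have left out reads there in every library. Whether the annotation used for counting held it is not given in the sources used here, and its part in the level of TBC1D30 was not tested.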

How the data were processed

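RNA-seq of 6 Molm13-Cas9 cultures was analysed, 3 sgCtrl and 3 sgCOX4I1. The authors deposited whole-number counts per gene symbol in 1 table, without normalization. The methods name Trimmomatic, Bowtie2 and RSEM, whereas the submitters' processing notes list bcl2fastq 2.20.0.422, STAR 2.6.0a, edgeR and GRCh38, and the column names carry HTSeq and marked duplicates, so the counter and annotation remain unsettled. Each column was assigned to a sample through its letter (C, control, or K, knockout) and guide number. Library preparation was directional.

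Counts were fitted in edgeR 4.0.16 (R 4.3.3) after TMM scaling and removal of genes with low counts (filterByExpr), by the quasi-likelihood test with group as the single term, and p-values were adjusted by Benjamini-Hochberg over 11861 genes. The call threshold was an adjusted p of 0.05. CPM were computed per library with TMM-scaled totals. Intervals at 95% come from the fitted standard error. P-values measure the spread between these cultures. Same-group libraries differed beyond sampling noise, so each counted once. DESeq2 1.42.0 and limma 3.58.1 (voom) were alternatives, with other scalings, filters, a replicate block and each library left out. Scripts were tested on simulated data.

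Exon lengths, proteins and codons came from GENCODE 44 on GRCh38, which matched 18402 of 19845 symbols and 43 of the 44 TBC1D symbols. Finger motifs were searched in translated MANE Select transcripts. Members and gene lists were chosen with earlier results of these data known. Named were COX4I1, all tested members, the Rabs RAB8A, RAB8B, RAB10 and RAB13, neighbours of TBC1D30 and, of lists without a call, the 2 genes of smallest adjusted p. Some genes of these lists are not reported here.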

Additional observations from a re-analysis of the deposited data

How the results depend on the processing

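The log2 fold change of TBC1D30 lay between -2.90 and -2.29 when 1 library was left out and between -2.62 and -2.50 under the other alternatives. The family was chosen for that fall on the same libraries, so this range is a description and no independent support. Calls elsewhere depended on the setting. With DESeq2 the calls were 2 in the TBC1D family, 2 Rabs, 0 activators and carriers, 1 RAB8 and cilium gene and 1 neighbour. Without a filter on low counts they were 3, 2, 0, 2 and 1. With the replicate block they were 4, 8, 4, 5 and 2, and 1 among other TBC-domain genes. With 1 library left out the calls ranged from 1 to 2 in the family, 0 to 1 for Rabs, 0 to 2 for RAB8 and cilium genes and 0 to 1 for neighbours. The cause was not tested. The main fit did not pair libraries by the replicate numbers of the labels. Deviations of same-numbered libraries from their group means correlated at 0.382, -0.0244 and 0.294. For sgCOX4I1 #1 and #3 the same-numbered control correlated best, while sgCOX4I1 #2 correlated best with sgCtrl #3. With 3 libraries a group, these correlations cannot decide whether the numbers mark pairs. Small estimates changed sign on leaving out a library: RAB8B (-0.022 to 0.15), TBK1 (-0.033 to 0.045), LEMD3 (-0.083 to 0.054) and LLPH (-0.079 to 0.015). COX4I1, at an adjusted p of 0.0512 in edgeR, passed with limma-voom, without a filter, with the replicate block and without sgCtrl #1, sgCtrl #3 or sgCOX4I1 #2, at log2 fold changes from -1.89 to -1.18. Leaving out antisense, pseudogene and read-through symbols removed only TBC1D29, which was not among the tested members. The family count stayed at 1 and could not have changed. Depth limits members below about 1 CPM, and 3 libraries a group limit all tests.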
